A study of Mus musculus with 16 samples.

Results

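The genes described here are 10 of the 25105 listed in the deposited matrix, chosen by symbol for their part in prohormone processing and in the secretory granule: Pcsk1, Pcsk2, Cpe, Scg5, Slc30a8, Chga, Chgb, Scg2, Ptprn and Ptprn2. All 10 were found, and all 10 were past the low filter in every comparison. Islet endocrine cells make their hormones as longer precursors, which are packed into dense-core granules and cut there. Prohormone convertases 1 and 2, encoded by Pcsk1 and Pcsk2, cut proinsulin at paired basic residues, Cpe (carboxypeptidase E) trims the ends that are left, and Scg5 is the chaperone that prohormone convertase 2 needs to mature. Slc30a8 is the zinc transporter that fills the beta cell granule with the zinc on which insulin crystallizes. Chga, Chgb and Scg2 encode granins, acidic proteins that condense in the granule core, and Ptprn and Ptprn2 encode catalytically inactive phosphatase-like proteins of the granule membrane.

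The samples were dispersed islet cells of adult Grp78 flox/flox mice, kept for 72 hours in medium with 15 mM glucose, in 4 groups of 4 poly(A) RNA libraries. Cells received adenovirus carrying LacZ (Ad-LacZ, the control) or Cre recombinase (Ad-Cre, labelled as the Grp78 knockdown), each with DMSO or with JNK-IN-8, an irreversible inhibitor of the stress kinases JNK (written + JNK inhibitor). The 4 islet preparations, F1, M1, M2 and F2, gave 1 library to each group, and the sample titles carry 2 animal numbers for each preparation, so that libraries of the same preparation are paired. No cell type was sorted from the islets, and all 4 groups carry the floxed allele and an adenovirus.

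Hspa5, the gene that encodes GRP78, did not fall with the knockdown label: in Ad-LacZ it measured 438 ± 49 RPKM (reads per kilobase of transcript per 1 M mapped reads, mean ± SD, n = 4), and under the knockdown label 1264 ± 231 RPKM, a rise of 1.54 on the log2 scale (SE 0.17, limma adjusted p = 0.00159). The RPKM of a whole gene does not separate the exons that Cre removes from those that remain. The study assessed the knockdown by qPCR on parallel aliquots, which was not analysed here, and every direction below that concerns Ad-Cre is that of the label. Depth, read from the steps between low values, was 7.7 to 25.5 M reads, and the shallowest library, F2 of Ad-Cre + JNK inhibitor, was also the only one whose column name carries another prefix and lane, while the next shallowest had 14.3 M. The members were read deeply, with 2058 to 350464 reads in a library, so that their counting error was at most 2.2%. Beta, alpha, delta and PP cell markers were above 0 in every library. Markers of stellate cells and fibroblasts summed to 21.8 to 683 RPKM, and were highest in M2 of Ad-Cre (683), M2 of Ad-LacZ + JNK inhibitor (512) and F2 of Ad-LacZ + JNK inhibitor (319). Since the RNA is from bulk cells, fewer cells of a type and less RNA per cell cannot be told apart in any value below.

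Cyclic AMP response elements are a known feature of granule gene promoters, so the RefSeq promoter windows (GRCm38.p6, 250 bases before to 50 after the start) were searched on both strands. Windows were found for 8 of the members (not Cpe and Slc30a8), Ptprn with more than 1. The palindrome TGACGTCA was in the windows of Pcsk1, Chgb and Scg2, that is, 3 of 9 member windows, while it was in 1.79% of all 32851 windows. Its core TGACG, which the palindrome contains, was in 7 of the 9 member windows and in 20.8% of all windows, and the AP-1 site TGANTCA was in 0 of the 9 and in 7.81% of all. These are matches of letters, with no test. Besides Pcsk1, Chgb, Scg2 and Chga, the core was in windows of Ptprn, Pcsk2 and Scg5. With the inhibitor in Ad-Cre, Ptprn, Pcsk2 and Scg5 had fitted differences of 0.50, 0.40 and 0.17, that of Scg5 the smallest of the members. Scg5 held the core at -175, 19 and 40 from the RefSeq start. Ptprn2 had no core and differed by 0.22. Whether the element goes with the difference was not tested. The stretches around the element are shown only for the members with the palindrome and for Chga. They were chosen since these members had the 4 largest fitted differences with the inhibitor in Ad-Cre, values that were known at that time. Capitals mark TGACG and the palindrome.
Pcsk1, chr13:75089749-75089816 (+): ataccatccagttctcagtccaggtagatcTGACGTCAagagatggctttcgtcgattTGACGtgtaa
Chgb, chr2:132781540-132781607 (+): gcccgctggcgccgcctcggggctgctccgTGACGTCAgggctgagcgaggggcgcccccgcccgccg
Scg2, chr1:79440057-79440124 (-): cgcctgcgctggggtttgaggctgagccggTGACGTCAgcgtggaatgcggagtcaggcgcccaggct
Chga, chr12:102554867-102554934 (+): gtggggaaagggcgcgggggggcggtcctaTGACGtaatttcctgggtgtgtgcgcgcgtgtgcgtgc
Counted from the RefSeq start, the element began at -78 in Pcsk1, -72 in Chgb, -68 in Scg2 and -44 in Chga, and Pcsk1 held a further core at -50. The gene spans given below come from another annotation, GENCODE, whose starts can differ. The elements of Chgb and Scg2 lie within those spans.

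Pcsk1 (chromosome 13, 75089826 to 75134861, GRCm38) was, in each of the 4 preparations, lower with the Cre virus than with LacZ and higher with the inhibitor than with DMSO. In the order F1, M1, M2 and F2 it was at 186, 187, 136 and 137 RPKM in Ad-LacZ and at 116, 109, 55.6 and 67.5 RPKM in Ad-Cre. With the inhibitor it was at 323, 322, 236 and 257 RPKM in Ad-LacZ and at 189.8, 198, 89.6 and 114 RPKM in Ad-Cre. The libraries labelled Ad-Cre with the inhibitor thus spanned the level of untreated Ad-LacZ, and F1 and M1 were above M2 and F2 in all 4 groups.

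Pcsk2 (chromosome 2, 143546156 to 143816285) was the more abundant convertase in every library. It was at 697, 691, 548 and 522 RPKM in Ad-LacZ, 635, 524, 287 and 335 RPKM in Ad-Cre, 752, 724, 519.6 and 499 RPKM in Ad-LacZ + JNK inhibitor, and 736, 577, 391 and 408 RPKM in Ad-Cre + JNK inhibitor. The split between preparations F1 and M1 and preparations M2 and F2 was wider in the libraries labelled Ad-Cre than the gap to their controls. Its chaperone Scg5 (chromosome 2, 113776362 to 113829121) was at 306, 321, 252 and 287 RPKM in Ad-LacZ and at 333, 270.2, 159 and 215 RPKM in Ad-Cre, and the inhibitor groups had 227, 259.7, 176 and 196 RPKM (Ad-LacZ) and 281, 252, 213 and 229 RPKM (Ad-Cre). Those ranges overlapped in all 4 comparisons.

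Cpe (chromosome 8, 64592542 to 64693054) was at 1532, 1438, 1255 and 1193 RPKM in Ad-LacZ and 1359.8, 1378, 1203 and 1256 RPKM in Ad-LacZ + JNK inhibitor. In the libraries labelled Ad-Cre it ran from 953 RPKM in M2 to 1653 RPKM in F1 (M1 1424, F2 1125), and with the inhibitor from 1294 RPKM in M2 to 1675 RPKM in F1 (M1 1548, F2 1527). Slc30a8 (chromosome 15, 52295553 to 52335798) followed the virus label instead. It was at 289.7, 261, 222 and 251 RPKM in Ad-LacZ and 329, 286, 203 and 236 RPKM in Ad-LacZ + JNK inhibitor, against 159.8, 182, 88.8 and 133 RPKM in Ad-Cre and 148, 173, 116 and 135 RPKM in Ad-Cre + JNK inhibitor, so that no library labelled Ad-Cre reached any labelled Ad-LacZ.

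The granins were the most abundant members, and Chga ranked 4 or 5 of all genes by mean RPKM in each group. Chga (chromosome 12, 102554969 to 102565028) was at 4874, 3588, 3091 and 3494 RPKM in Ad-LacZ, 4835, 3522, 1925 and 2829 RPKM in Ad-Cre, 5235, 4336, 3872 and 4994 RPKM in Ad-LacZ + JNK inhibitor, and 6308, 4404, 3451 and 4846 RPKM in Ad-Cre + JNK inhibitor. Scg2 (chromosome 1, 79434669 to 79440120) was at 2625, 3101, 2229 and 2661 RPKM in Ad-LacZ and 3103, 2912, 1416 and 1940.4 RPKM in Ad-Cre, and at 4966, 4245, 2411 and 2453 RPKM (Ad-LacZ) and 4501, 4048, 3570.3 and 2938 RPKM (Ad-Cre) with the inhibitor. For both genes, F1 was highest and M2 lowest in Ad-Cre without the inhibitor. Chgb (chromosome 2, 132781278 to 132795079) did not follow the preparations in this way: its 4 libraries labelled Ad-Cre were within 2014 to 2115 RPKM (CV 2.29%), and those with the inhibitor ran from 2499 in M1, 2537 in F1 and 2881 in F2 to 3681 in M2. Ad-LacZ had 1832, 1998, 2308 and 2959 RPKM (in F1, M1, M2 and F2), and Ad-LacZ + JNK inhibitor 2846, 2317, 2389 and 2286 RPKM.

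Ptprn (chromosome 1, 75247027 to 75264502) was at 382, 391, 354 and 294 RPKM in Ad-LacZ and 508, 416, 324 and 344 RPKM in Ad-Cre. Its levels with the inhibitor were 342, 449, 372 and 364 RPKM in Ad-LacZ and 719.6, 583, 331 and 477 RPKM in Ad-Cre, where the range was the widest of the 4 groups. Ptprn2 (chromosome 12, 116485720 to 117276849) was at 170.2, 160.1, 143 and 149 RPKM in Ad-LacZ, 169, 145, 95.9 and 116 RPKM in Ad-Cre, 164, 159, 136 and 140.2 RPKM in Ad-LacZ + JNK inhibitor and 167, 140.4, 117 and 129 RPKM in Ad-Cre + JNK inhibitor. In each of the 4 groups the order of the preparations for Ptprn2 was F1, M1, F2 and M2. As a share of all RPKM, the 10 members made up 2.38% (M2, Ad-Cre) to 5.69% (F1, Ad-LacZ + JNK inhibitor) of a library.

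**Figure D1:**
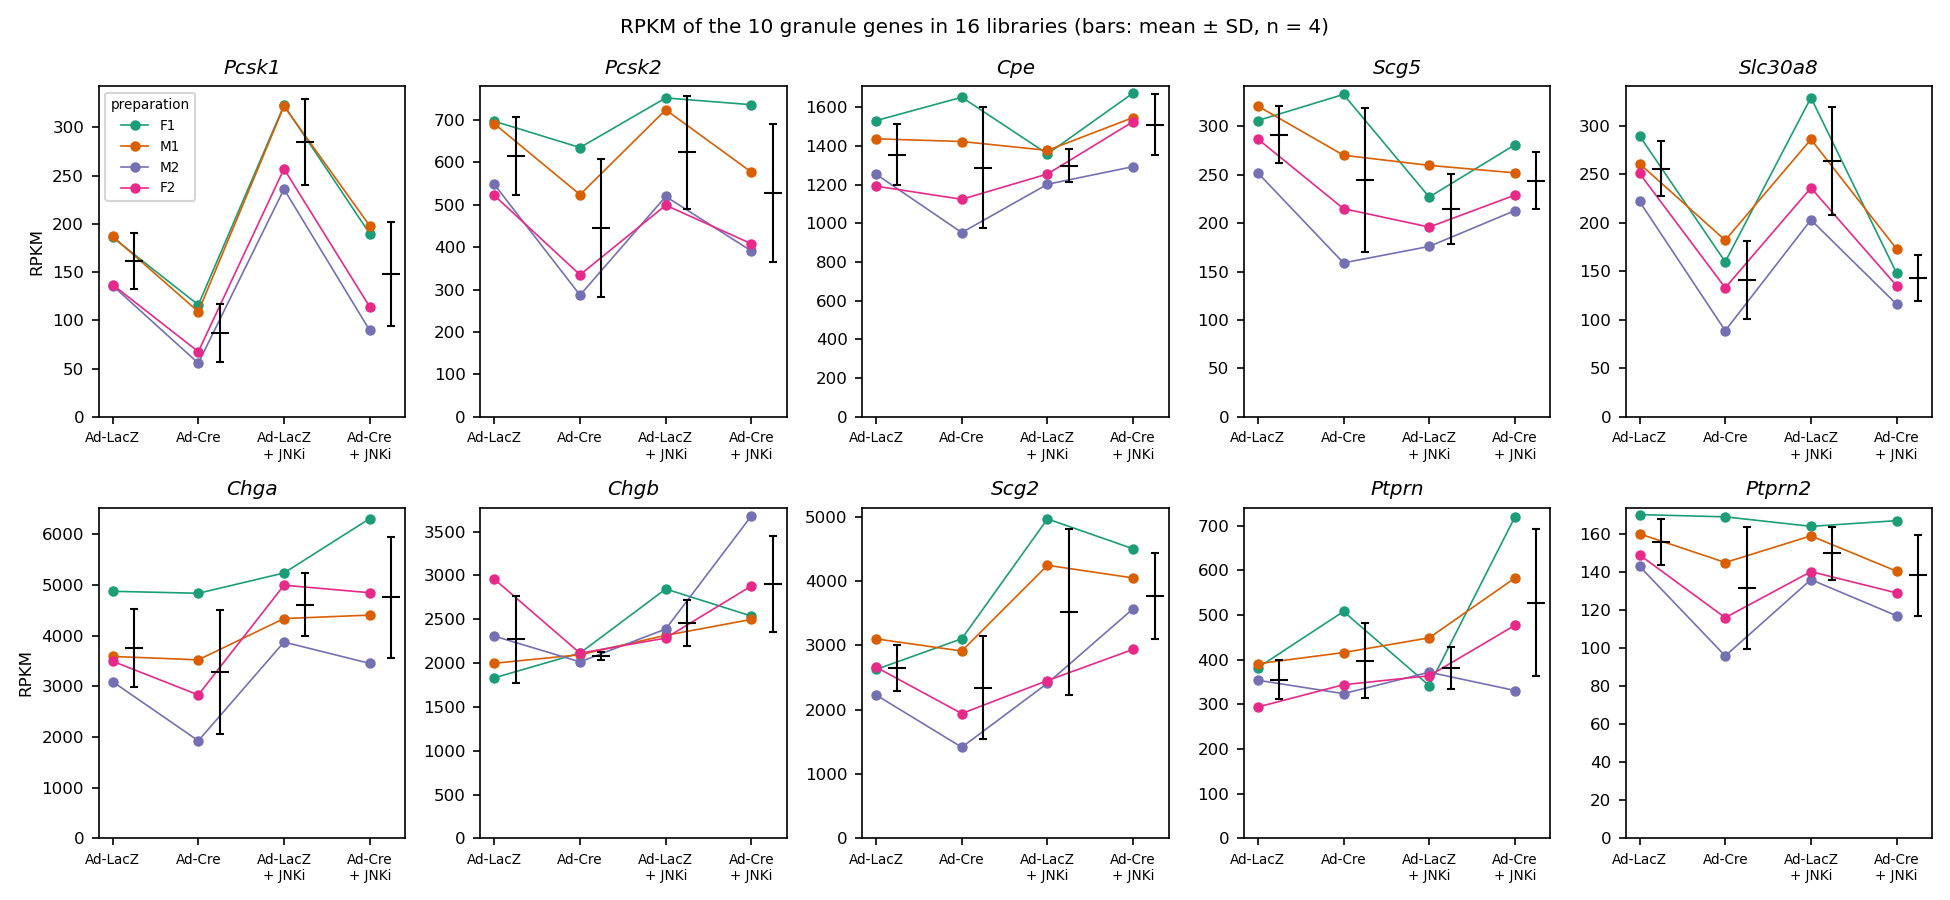
RPKM of each member (y axis, linear, from 0) in the 4 groups (x axis; JNKi, JNK inhibitor), with the libraries of a preparation joined by a line and the group mean ± SD beside them (n = 4). Pcsk1 and Slc30a8 are lower in the libraries labelled Ad-Cre in all 4 preparations, and Ptprn2 keeps the order F1, M1, F2, M2 in every group.

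Cre against LacZ virus, without inhibitor, is the comparison that the study made for its GRP78 knockdown. Slc30a8 fell by 0.88 on the log2 scale (0.545-fold, SE 0.25, limma adjusted p = 0.0433), and no other member passed. This was 1 of 10 members, against 19.0% of the 11590 genes tested (adjusted p under 0.05 on the log2 of TMM-scaled RPKM plus 1, where TMM is the trimmed mean scaling of libraries). Pcsk1 had a change as large (-0.91, 0.532-fold, SE 0.29) but missed the threshold (adjusted p = 0.0602). With the preparation as a block, limma called 3 members down, against 34.7% of all genes: Pcsk1 (adjusted p = 0.00296), Slc30a8 (adjusted p = 0.00429) and Pcsk2 (-0.50, adjusted p = 0.041). The other 7 differed by -0.28 (Scg5), -0.25 (Ptprn2), -0.23 (Chga), -0.22 (Scg2), -0.08 (Chgb), -0.07 (Cpe) and 0.17 (Ptprn), and the median of the 10 was -0.24 against 0.02 for all genes tested. Slc30a8 was the only member whose groups did not overlap after scaling (27.2% of all genes did not), while Pcsk1 did not overlap on the RPKM as deposited. Quantile normalization gave other values for several members, with 5 called by limma, beside 2093 of the 11590 genes: Slc30a8 (-1.18, adjusted p = 0.00658), Pcsk1 (-1.16, adjusted p = 0.0152), Pcsk2 (-0.95, adjusted p = 0.0199), Cpe (-0.57, adjusted p = 0.0449) and Ptprn2 (-0.52, adjusted p = 0.0473). Under it Scg5 was at -0.63 (adjusted p = 0.0506) and Ptprn turned to -0.21.

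The call of Slc30a8 was lost without F1, M1 or F2 (limma adjusted p = 0.0965, 0.0805 and 0.165) and kept without M2 (0.0416). Its fold change was then -0.91, -1.01, -0.86 and -0.75. Over all genes, leaving out 1 preparation lowered the calls from 2201 to between 373 and 1054. With the block its adjusted p was 0.00478 to 0.027 without 1 preparation. The call without the block was also lost with no low filter (adjusted p = 0.0979) or one at 0.1 RPKM (adjusted p = 0.0785). Likewise the blocked call of Pcsk1 was kept without any 1 preparation (adjusted p = 0.00656 to 0.0205), and that of Pcsk2 was lost without M1 (0.0638), M2 (0.134) or F2 (0.144). By the criteria of the study, a p under 0.05 (taken here as unadjusted) and a change above 1.5-fold, Pcsk1 and Slc30a8 passed, against 10.2% of all genes. Within preparations, Pcsk1 differed by -0.60, -0.74, -1.23 and -1.06 and Slc30a8 by -0.78, -0.48, -1.27 and -0.97 in F1, M1, M2 and F2. For Scg5, Chga, Scg2 and Ptprn2 the differences of F1 were 0.06 to 0.31 and those of M2 were -0.64 to -0.53. M2 and F2 of Ad-Cre also had the highest sums of stellate cell and fibroblast markers of that group (683 and 179 RPKM, against 21.8 and 32 RPKM in F1 and M1), and the part of those cells in the members' values was not tested.

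**Figure D2:**
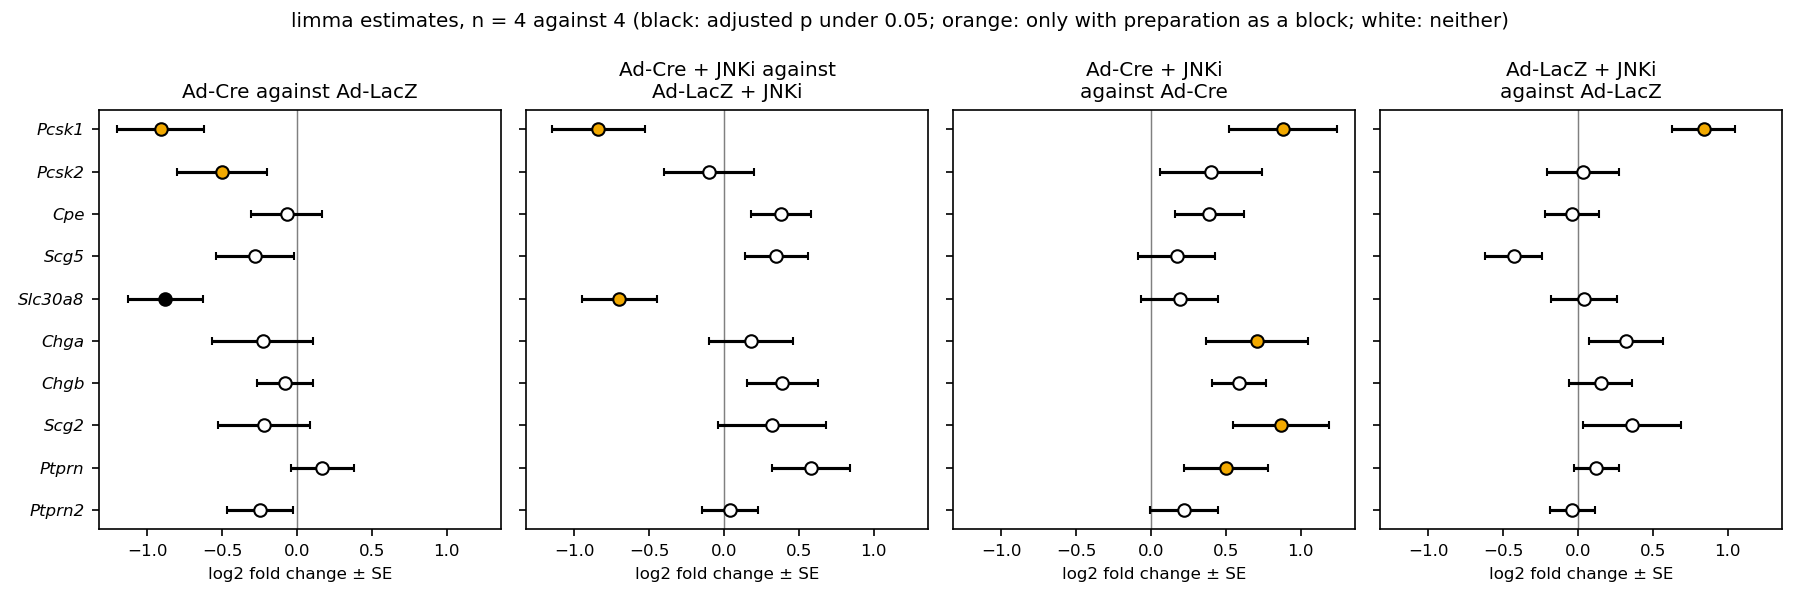
limma log2 fold changes (x axis, ± SE, n = 4 against 4) of the members (y axis) in 4 comparisons. Slc30a8 in Ad-Cre against Ad-LacZ is the only black point, and Pcsk1 is orange, called only with the preparation as a block, in all 4 panels.

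Under the inhibitor the comparison of Ad-Cre with Ad-LacZ gave these values. Pcsk1 differed by -0.84 (SE 0.31, limma adjusted p = 0.0797) and Slc30a8 by -0.70 (SE 0.25, adjusted p = 0.0722), and 0 members were called, against 21.7% of 11598 genes. At an unadjusted p under 0.05 there were 3 members, against 36.5% of all genes. The blocked limma fit called 2, Pcsk1 (adjusted p = 0.00782) and Slc30a8 (adjusted p = 0.0223), against 23.9% of all genes. Leaving out M1 or F2 ended both of those calls (adjusted p = 0.0523 and 0.0766 for Pcsk1, and 0.109 and 0.105 for Slc30a8). By the criteria of the study 2 passed, again Pcsk1 and Slc30a8, against 17.7% of all genes. Ptprn had the largest positive difference, 0.58 (SE 0.26, adjusted p = 0.136, and 0.0519 with the block), and without M2 it was 0.71 and called (adjusted p = 0.0465). Cpe (0.38) and Scg5 (0.35) were higher within all 4 preparations, and so were Ptprn and Chga (0.18), while Pcsk2 was lower by only 0.05 to 0.22 within each. The median of the members was 0.25 against -0.01 for all genes. No member's groups were apart after scaling (26.7% of all genes were), although on the RPKM as deposited those of Pcsk1 and Slc30a8 were. Under quantile normalization the differences of Cpe (-0.45), Scg5 (-0.20), Chga (-0.27), Chgb (-0.01), Scg2 (-0.07), Ptprn (-0.11) and Ptprn2 (-0.42) turned negative, and on the RPKM as deposited Ptprn2 did (-0.12), where the median of all genes was -0.14, so the sign for the members other than Pcsk1, Pcsk2 and Slc30a8 depends on the scaling.

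The inhibitor in the libraries labelled Ad-Cre asked whether JNK activity contributes to the state of those cells. All 10 members were higher by the fitted value, by 0.17 (Scg5) to 0.88 (Pcsk1), with a median of 0.45 against -0.03 for all genes. Under quantile normalization most of these differences were close to 0 or below it: Pcsk1 was at 0.62, Scg2 at 0.40 and Ptprn at 0.15, but Pcsk2 and Chgb were at 0.06, Chga at 0.04, Cpe at 0.02, Ptprn2 at -0.05, Slc30a8 at -0.06 and Scg5 at -0.08. Markers of alpha, delta and PP cells differed in the same direction before that normalization. The median was 0.45 with 7 of 7 alpha cell markers higher (2 called with the block). It was 0.43 with 6 of 6 delta and PP cell markers higher (1 called with the block). Beta cell markers had a median of -0.20 with 3 of 10 higher, and endocrine transcription factors a median of 0.05 with 5 of 9 higher. Of these last lists 0 genes were called with or without the block. Stellate cell and fibroblast markers had a median of -0.61 with 1 of 6 higher, and macrophage markers one of -0.02 with 3 of 7 higher (1 called with the block). The part of any of these cells in the members' values was not tested. limma without the block called 0 members and 0 of 11503 genes, with 3 members and 1097 genes at an unadjusted p under 0.05. Those 3 were Pcsk1 (0.88, SE 0.36, adjusted p = 0.481), Scg2 (0.87, SE 0.32, adjusted p = 0.42) and Chgb (0.59, SE 0.18, adjusted p = 0.337), which were also the 3 that met the criteria of the study (above 1.2-fold), against 8.81% of all genes. Chgb was the 1 member whose groups did not overlap, against 7.10% of all genes (exact two-sided permutation test, p = 0.0286, the smallest that 4 against 4 allows).

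With the block, 4 members rose, against 6.08% of all genes called: Pcsk1 (limma adjusted p = 0.00985), Ptprn (0.50, adjusted p = 0.0346), Chga (0.71, adjusted p = 0.0439) and Scg2 (adjusted p = 0.0499). These calls depended on the preparations in the fit. Without M2, 6 members passed (those 4, Chgb and Pcsk2), as did 3078 of all genes in place of 699, and without F1, M1 or F2 the blocked fit called 0 members and 0 genes, with an adjusted p of 0.0723, 0.105 and 0.0889 for Pcsk1. With the block on RPKM as deposited or after quantile normalization, only Pcsk1 of the 10 was called. Its differences were 0.81, 0.94, 0.90 and 0.86 in F1, M1, M2 and F2, whereas those of Scg2 (0.64, 0.56, 1.56 and 0.71), Chgb (0.37, 0.33, 1.10 and 0.56) and Chga (0.49, 0.40, 1.07 and 0.89) were largest in M2. In that same preparation, alpha cell markers summed to 13508 RPKM in Ad-Cre and 27363 RPKM with the inhibitor, and delta and PP cell markers to 7506 and 12058 RPKM. In F2 the alpha cell sums were 12008 and 17698 RPKM and the delta and PP cell sums 4307 and 7213 RPKM, while in F1 and M1 the alpha cell sums were 21683 and 23455 RPKM and 12920.3 and 13462 RPKM. Stellate cell and fibroblast sums were lower with the inhibitor in M2 (683 and 148 RPKM), F2 (179 and 109 RPKM) and M1 (32 and 26.3 RPKM), and higher in F1 (21.8 and 26.7 RPKM). What part any of these cells had in the members' values was not tested. Leaving out the F2 library of Ad-Cre + JNK inhibitor alone left 0 members called, with 1.01 for Pcsk1, 1.02 for Scg2 and 0.73 for Chga.

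**Figure D3:**
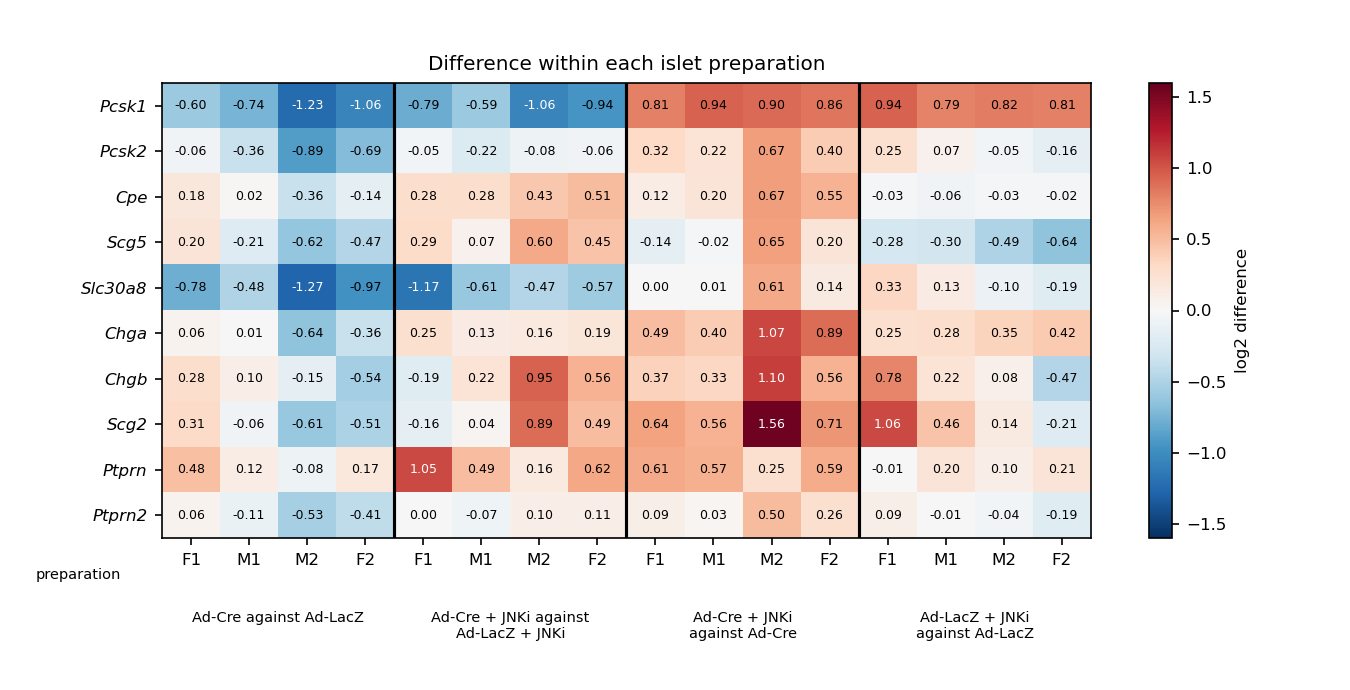
Difference of log2 TMM-scaled RPKM within each preparation (columns, in 4 comparisons of 4) for the members (rows), on a colour scale from blue (lower) to red (higher). Pcsk1 differs by 0.79 to 0.94 in all 8 inhibitor columns, and M2 has the largest positive values of Scg2 (1.56), Chgb (1.10) and Chga (1.07).

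In the Ad-LacZ controls the inhibitor was set against DMSO to show what it does without the Cre virus. Pcsk1 was higher by 0.84 (1.79-fold, SE 0.21, unadjusted p = 0.00376 and limma adjusted p = 0.311) and by 0.94, 0.79, 0.82 and 0.81 within F1, M1, M2 and F2. It was the 1 member whose groups did not overlap, against 4.70% of all genes, and the 1 that met the criteria of the study, against 4.79%. limma without the block called 0 members and 0.206% of 11657 genes, with 1 member and 6.35% of all genes at an unadjusted p under 0.05. The blocked fit called 1, Pcsk1 (adjusted p = 0.0365), against 0.360% of all genes. That call was kept without F1 (0.0231) or F2 (0.0487) and lost without M1 (0.255) or M2 (0.244), with the fold change at 0.81 to 0.86. Of the other 9, Scg5 (-0.43, adjusted p = 0.803, and 0.145 with the block) was lower in all 4 preparations, by 0.28 to 0.64, and Chga (0.32) was higher in all 4. The median of the 10 was 0.08, and Pcsk2 (0.03), Slc30a8 (0.04), Cpe (-0.04) and Ptprn2 (-0.04) were close to the level of DMSO, with SE of 0.15 to 0.24. Scg2 was higher by 1.06 in F1 and lower by 0.21 in F2.

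The interaction asks whether the inhibitor acted differently with the Ad-Cre label. It was positive for all 10 members, from 0.07 (Pcsk1, SE 0.46) to 0.63 (Scg5, SE 0.35), with a median of 0.41 against 0 for all genes, but it turned to -0.07 for Pcsk1 on the RPKM as deposited and to -0.13 for Pcsk1 and -0.06 for Chga after quantile normalization. limma called 0 members and 0.0163% of the 12274 genes, with 0 members and 3.59% of all genes at an unadjusted p under 0.05. With the block it called 0 members and 0 genes, or 0%, at an adjusted p under 0.05. At an unadjusted p under 0.05 the block had 4 members and 1442 genes. Quantile normalization left the largest, that of Scg5, at 0.47 and that of Cpe at 0.06. Alpha cell markers had a median interaction of 0.47 (7 of 7 positive) and delta and PP cell markers one of 0.66 (6 of 6 positive). That of beta cell markers was -0.04 (3 of 10 positive) and that of endocrine transcription factors 0.05 (5 of 9 positive). Negative throughout were stellate cell and fibroblast markers, with a median of -2.31 (0 of 6 positive), and macrophage markers, with one of -0.77 (0 of 7 positive). In all of these lists 0 genes were called by limma with or without the block. The part of any of these cells in the members' values was not tested.

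Ratios between genes of a library do not depend on a factor that scales the whole library, such as that of TMM. Quantile normalization can change them, and no ratio was refitted under it. In Ad-Cre against Ad-LacZ it gave -1.16 for Pcsk1 and -0.95 for Pcsk2, beside -0.91 and -0.50 in the main fit. Pcsk1 against Pcsk2, the balance of the convertases, was 0.248 to 0.27 in Ad-LacZ, 0.183 to 0.207 in Ad-Cre, 0.43 to 0.514 in Ad-LacZ + JNK inhibitor and 0.229 to 0.343 in Ad-Cre + JNK inhibitor. On the log2 scale it differed by -0.42 between Ad-Cre and Ad-LacZ, by -0.75 between them under the inhibitor, by 0.48 with the inhibitor in Ad-Cre and by 0.81 in Ad-LacZ, and in none of the 4 comparisons did the groups overlap. Each had the smallest p that an exact permutation test of 4 against 4 gives, 0.0286 (two-sided), as had 18 of the 32 tests of 8 ratios in 4 comparisons, and the Benjamini-Hochberg adjusted p of those 18 was 0.0508, which misses the threshold. With preparations paired, the smallest p of an exact sign-flip test of 4 differences is 0.125, so that no ratio could pass. Pcsk1 against Pcsk1n, which encodes an inhibitor of prohormone convertase 1, moved further: 0.446 to 0.708 in Ad-LacZ, 0.194 to 0.368 in Ad-Cre, 1.1 to 2.59 in Ad-LacZ + JNK inhibitor and 0.38 to 0.815 in Ad-Cre + JNK inhibitor. Its log2 differences were -1.16 (Ad-Cre against Ad-LacZ), -1.39 (the same under the inhibitor), 1.06 (inhibitor in Ad-Cre) and 1.29 (inhibitor in Ad-LacZ), also without overlap.

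Against insulin transcripts (Ins1 plus Ins2, the cargo on which these enzymes act), Pcsk1 differed by -0.68 on the log2 scale in Ad-Cre against Ad-LacZ, without overlap, and the 4 within-preparation differences had an SD of 0.03. Slc30a8 against insulin differed by -0.65 in the same comparison and by -1.04 under the inhibitor, both without overlap, while Cpe against insulin differed by 0.16 and 0.05 and overlapped. With the inhibitor in Ad-LacZ, Pcsk1 against insulin was higher by 1.42, Slc30a8 by 0.62 and Cpe by 0.54 (exact p = 0.0286, 0.0286 and 0.0571). Ins1 and Ins2 themselves differed by -0.60 (SE 0.35) and -0.56 (SE 0.37) there, and did not pass. The pair Ptprn and Ptprn2 also shifted: their ratio was 1.97 to 2.48 in Ad-LacZ and 2.87 to 3.38 in Ad-Cre, and 2.08 to 2.83 and 2.83 to 4.32 with the inhibitor, a log2 difference of 0.42 and 0.54. Pcsk2 against Scg5 was higher with the inhibitor in Ad-LacZ (by 0.46, without overlap) and differed by -0.23 in Ad-Cre against Ad-LacZ, where the groups overlapped. For Chga against Chgb the differences were -0.20 to 0.17, with overlap in all 4 comparisons.

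**Figure D4:**
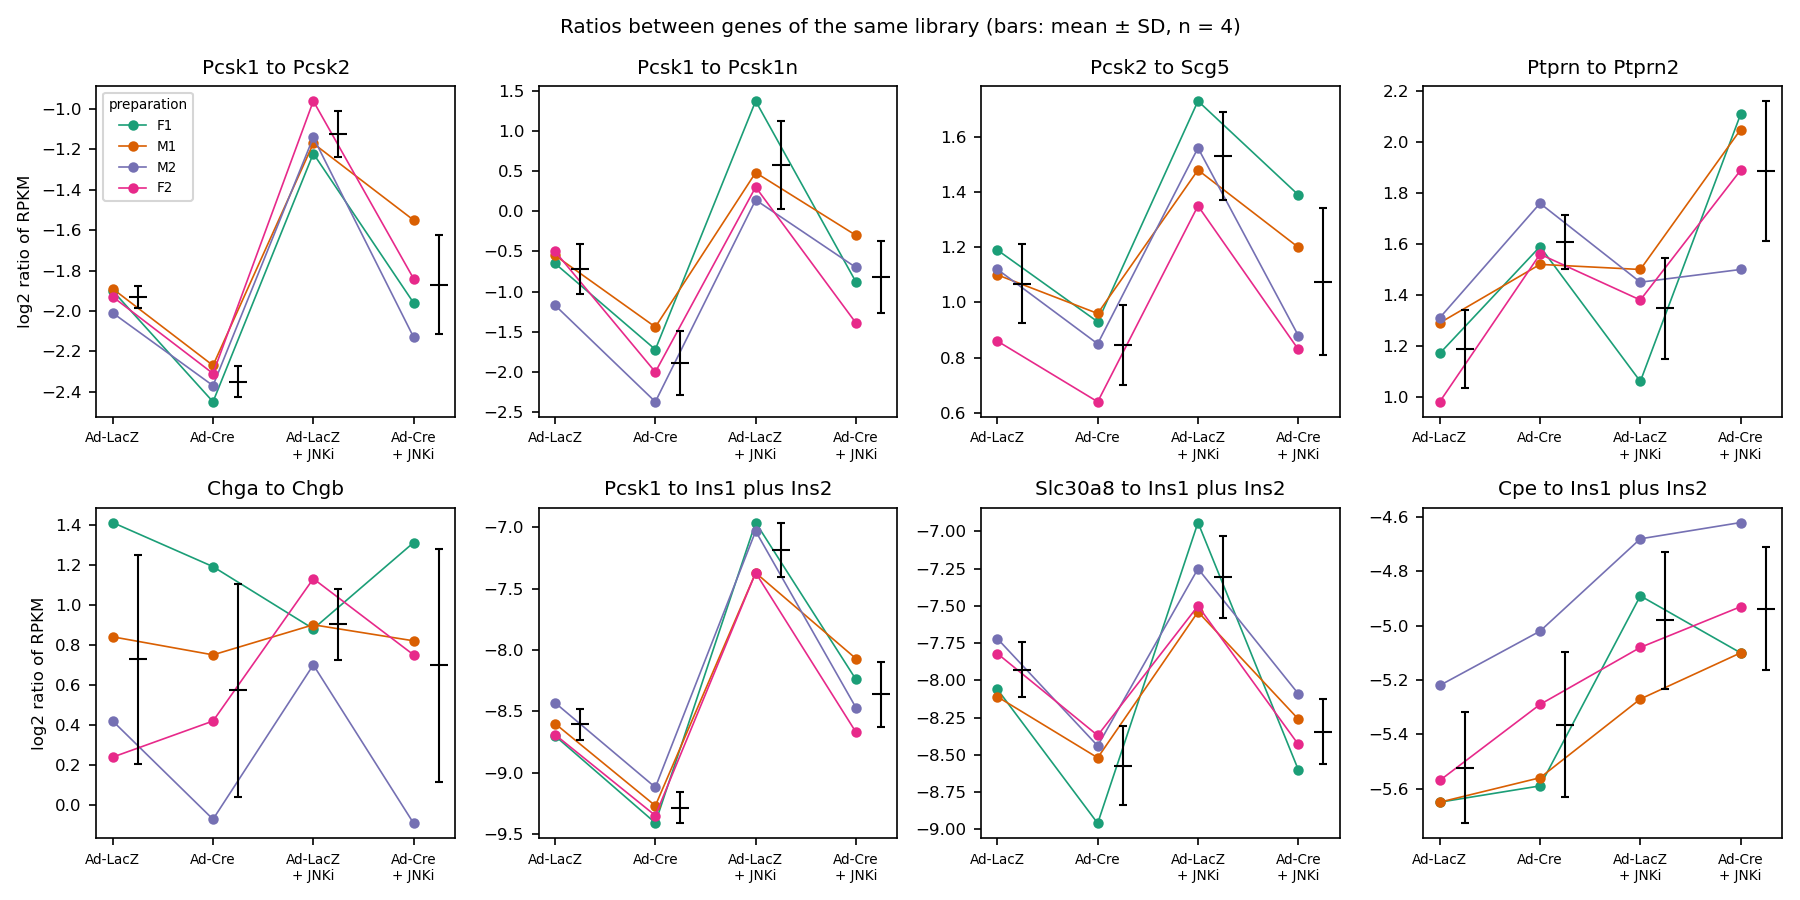
log2 of the ratio of RPKM between genes of the same library (y axis) in the 4 groups (x axis), joined by preparation, with mean ± SD (n = 4). Pcsk1 to Pcsk2 is apart between the groups of every comparison, whereas Chga to Chgb overlaps throughout.

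Across the 16 libraries, the members differed in what their variance followed. For Ptprn2 and Pcsk2 the preparation took 75.5% and 71.4% of the sum of squares of log2 values, and for Scg5 and Cpe 63.8% and 61.1%. For Slc30a8 the virus label took 56.5% and the inhibitor 1.53%. Pcsk1 was split almost evenly between preparation (29.7%), virus label (34.3%) and inhibitor (33.3%), with a residual of 2.68%, the smallest of the 10. The inhibitor took 37.6% for Chgb, 31.8% for Scg2 and 30.6% for Chga, and the virus label at most 5.24% for these granins. Chgb stood apart with 1.82% for preparation and the largest residual, 41.5%. As a description over 16 libraries that share preparations, Pearson's r of a member with the mean of the other 9 was 0.949 for Ptprn2, 0.921 for Pcsk2 and 0.919 for Scg2, and lowest for Slc30a8 (0.595) and Chgb (0.392). The closest pair was Pcsk2 and Ptprn2 (r = 0.969), and Pcsk1 was closest to Slc30a8 (r = 0.842). Outside the 10, the genes most like their mean were Bambi (r = 0.962), Dap (0.96), Park7 (0.955), Sil1 (0.941) and Scg3 (0.941), of which Scg3 is itself a granin.

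**Figure D5:**
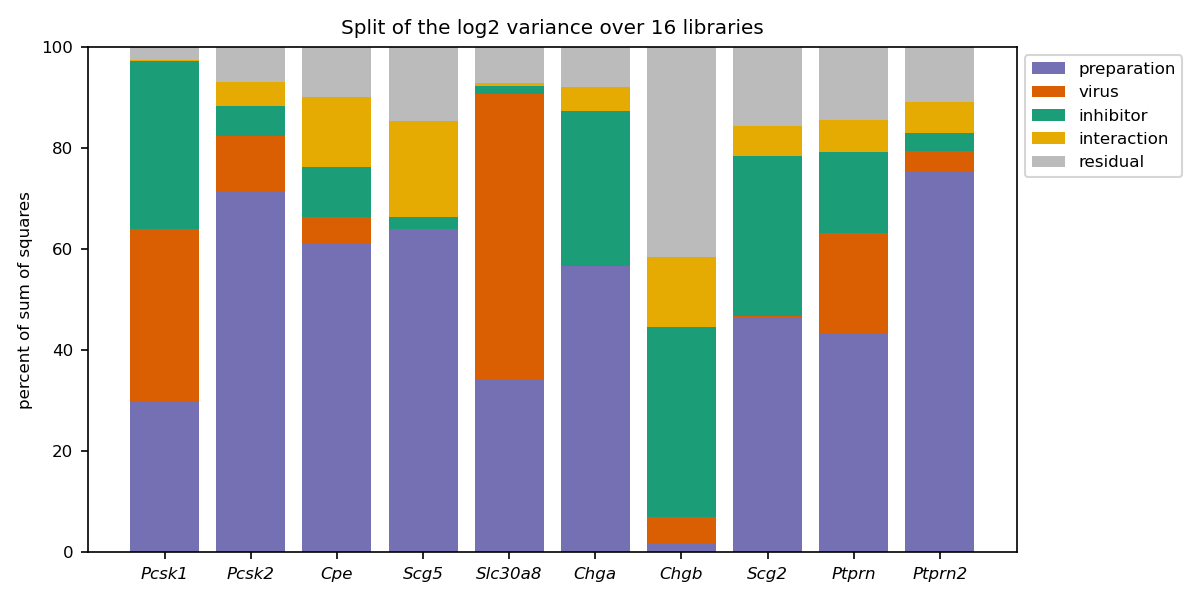
Share of the sum of squares of log2 TMM-scaled RPKM (y axis, percent) of each member (x axis) that goes with preparation, virus label, inhibitor, their interaction and the residual, over 16 libraries. Slc30a8 has the largest virus share (56.5%), Chgb the largest residual (41.5%) and Ptprn2 the largest preparation share (75.5%).

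Other genes of the granule were counted in 4 lists, beside 19.0% of all genes called in Ad-Cre against Ad-LacZ and 21.7% under the inhibitor. Counts such as 2 of 8 or 5 of 20 lie near that background. Of 8 further processing genes tested, 2 rose in Ad-Cre against Ad-LacZ, the convertase Pcsk6 (0.54, limma adjusted p = 0.0095) and the protease Ctsl (0.38, adjusted p = 0.0465), and Pcsk6 rose under the inhibitor too (0.53, adjusted p = 0.00809), where it was the only 1 of the 8. Of 3 further granins and cargo proteins, 0 were called without the inhibitor by limma (Vgf 1.02, adjusted p = 0.0782, and 0.00119 with the block), and 2 were higher under it, the neuropeptide precursor Vgf (1.71, adjusted p = 0.0074) and Resp18 (0.82, adjusted p = 0.00748). Among 16 genes of granule formation, Hid1, which acts in granule maturation, rose (0.69, adjusted p = 0.0287) and Ica1l fell by 0.94 (adjusted p = 0.0133), with Hid1 (1.25, adjusted p = 0.00771), Arfip2 (0.63, adjusted p = 0.0237) and Ica1l (-1.10, adjusted p = 0.00569) called under the inhibitor. Of 20 proton pump and transporter genes tested, 5 rose in Ad-Cre and 0 fell, led by the nucleotide transporter Slc17a9 (1.44, adjusted p = 0.00104), the zinc transporter Slc30a5 (0.52, adjusted p = 0.013) and the metal importer Slc39a14 (0.50, adjusted p = 0.0166). Under the inhibitor 7 of 21 rose, among them Slc17a9 (2.08, adjusted p = 0.00163) and the pump subunits Atp6v0c (1.03, adjusted p = 0.01) and Atp6v0d1 (0.88, adjusted p = 0.017), and the pump subunits Atp6v1a (-0.51, adjusted p = 0.00815) and Atp6v1h (-0.38, adjusted p = 0.0215) fell. The medians of these lists were 0.23, 0.31, 0.05 and 0.10 in Ad-Cre against Ad-LacZ, beside -0.24 for the 10 members and 0.02 for all genes.

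For the inhibitor in Ad-Cre and in Ad-LacZ, limma called 0 of these genes without the block (all 4 lists). The blocked limma fit called Vgf (1.46, adjusted p = 0.0182) and Scg3 (0.99, adjusted p = 0.0345) in Ad-Cre, 2 of the 3 in their list, against 6.08% of all genes. It also called 6 of 20 pump and transporter genes, 1 of 16 genes of granule formation and 1 of 8 further processing genes, Cpd, which fell by 0.42 (adjusted p = 0.0294). As above, blocked calls in that comparison rest on the preparations used.

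The hormones stored in the granule gave few calls. In Ad-Cre against Ad-LacZ, 0 of 8 were called by limma: Ins1 (-0.35), Ins2 (-0.15), Iapp (-0.26), Gcg (0.03), Sst (-0.01), Ppy (0.30), Pyy (0.24) and Npy (-0.81, which with the block had an adjusted p of 0.0173). Under the inhibitor 1 was, Ppy, the pancreatic polypeptide gene (0.95, SE 0.24, adjusted p = 0.0219), against 21.7% of all genes. With the block 4 of the 8 were higher (Ins2 0.59, Ppy, Pyy 0.90 and Sst 0.87) and Npy lower (-0.84), against 23.9% of all genes called. With the inhibitor in Ad-Cre, Sst had the largest difference (1.05, limma adjusted p = 0.453, and 0.0401 with the block), and in Ad-LacZ 0 of 8 were called with or without the block.

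Endocrine transcription factors were counted as a further list. In Ad-Cre against Ad-LacZ, of 8 tested, 0 were higher, 7 were called without the block (19.0% of all genes were) and 8 with it (34.7%), led by Neurod1 (-1.27, limma adjusted p = 0.00669), Nkx2-2 (-1.09, adjusted p = 0.00462) and Rfx6 (-0.84, adjusted p = 0.0249). Under the inhibitor 6 of 9 fell, led by Neurod1 (-1.50, adjusted p = 0.00117), Nkx2-2 (-0.90, adjusted p = 0.00741) and Rfx6 (-0.75, adjusted p = 0.0327). The summed level of the 9 was 183 to 218 RPKM in the 8 libraries labelled Ad-Cre and 335 to 412 RPKM in the 8 labelled Ad-LacZ, with or without the inhibitor. None was called with the inhibitor, in Ad-Cre or Ad-LacZ, in either limma fit. Of 10 beta cell markers, 2 fell in Ad-Cre, Ucn3 (-2.08, adjusted p = 0.0365) and G6pc2 (-1.93, adjusted p = 0.00525), and 6 with the block, with a median of -0.76. Under the inhibitor 4 fell, of which G6pc2 (-2.30, adjusted p = 0.0018), Ucn3 (-2.16, adjusted p = 0.00939) and Mafa (-1.69, adjusted p = 0.015) fell furthest. The summed level of the 10 markers, insulin and amylin included, was 52006 to 84842 RPKM in Ad-LacZ and 33532 to 84491 RPKM in Ad-Cre. With the inhibitor it was 36097 to 61469.5 RPKM in Ad-LacZ and 33284 to 64524 RPKM in Ad-Cre. Of 7 alpha cell markers 0 were called by limma in any comparison (3 of 7 with the block under the inhibitor, among them Ttr, 0.68, and Ttr, 1.65, and Irx1, 0.55, with the inhibitor in Ad-Cre), and of the delta and PP cell markers only Ppy was, under the inhibitor. With the block 5 of these 6 were called there, all higher and with a median of 0.89, against 23.9% of all genes, and 1, Sst, with the inhibitor in Ad-Cre. Of 7 macrophage markers, C1qb (1.13, adjusted p = 0.0272) and C1qc (0.93, adjusted p = 0.037) rose in Ad-Cre, and Cd68 (1.22, adjusted p = 0.0207) rose with the inhibitor in Ad-LacZ, from sums of 70 to 78.4 RPKM in Ad-LacZ to 69.7 to 205 RPKM in Ad-Cre and 136 to 313 RPKM in Ad-LacZ + JNK inhibitor. Endothelial markers summed to 16.3 to 61.5 RPKM and acinar and duct markers to 41.6 to 99 RPKM, with 0 of them or of the stellate cell and fibroblast markers called by limma without the block in any comparison. The blocked fit called 4 of 6 stellate cell and fibroblast markers lower in Ad-Cre under the inhibitor (median -1.17), against 23.9% of all genes. It called 1 of 4 higher with the inhibitor in Ad-LacZ, against 0.360%. Also called higher were 1 of 5 endothelial markers with the inhibitor in Ad-Cre and 1 of 2 acinar and duct markers in Ad-Cre against Ad-LacZ, without and with the inhibitor. The part of a change in cell types in the values of Pcsk1 and Slc30a8 was not tested.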

How the data were processed

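RNA was measured by paired-end poly(A) RNA-seq in 16 libraries, with groups taken from the treatment label. The deposited values were RPKM, made by the authors from reads on GRCm38, and the counting step and annotation are not given in the sources used here. Columns of 3 libraries that match no sample label were not used. TMM factors (trims of 30% and 5%) were applied, genes were kept where 4 or more of the fitted libraries exceeded 1 RPKM, and log2(value + 1) was tested in limma 3.58.1 (R 4.3.3) with Benjamini-Hochberg adjustment over all genes. A fold change on that scale understates the change of low genes. In simulated Ad-Cre against Ad-LacZ data, 200 genes were changed by 1 on the log2 scale, more than any member differed in the main fits. The simulated libraries shared no preparation effect, unlike the real ones. Of the 189 changed genes past the filter, 79.4% were recovered, and 60.3% with the block. Of 160 calls without the block, 6.25% were false. Ratios within a library had exact permutation tests (scipy 1.17.1).

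Preparation numbers come from the titles. Same-numbered libraries deviated together in every comparison (residual r 0.126 to 0.824), so a fit with the preparation as a block is given where a call changes. Without the block, p-values measure the spread between the 4 libraries of a group, 1 from each preparation. With the block, they measure the spread of the differences within the 4 preparations. Depth was 7.7 to 25.5 M reads, from low values of which 93.1% to 94.3% were within 0.05 of a whole read, and counting error covers reads only.

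The 10 genes and the gene lists were chosen with earlier results of these data known. Named are all 10, Hspa5, the hormones, per list and comparison up to 3 largest rises and falls at an adjusted p under 0.05, and the 5 genes most like the members' mean. Genes named from the blocked fit alone were named after their values were seen. Alternatives were other filters, pseudocounts and scalings, 1 fit over all libraries, the block and each preparation left out. Fits that join the block with another scaling or a left-out preparation, and TMM over all genes, were chosen after seeing the data.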

Additional observations from a re-analysis of the deposited data

Results flagged for a closer look

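Cpe, the carboxypeptidase that trims convertase products, differed in opposite directions with the inhibitor after the Cre virus and after LacZ on the TMM-scaled values of every preparation. On the RPKM as deposited F2 of LacZ was higher with the inhibitor (1193 and 1256 RPKM). It was higher in all 4 preparations of Ad-Cre, by 0.12, 0.20, 0.67 and 0.55 on the log2 scale in F1, M1, M2 and F2, and lower in all 4 of Ad-LacZ, at -0.03, -0.06, -0.03 and -0.02. The difference of these effects was 0.45 (SE 0.30) and did not pass (limma adjusted p = 1), nor with the preparation as a block (unadjusted p = 0.00945, adjusted p = 0.273). The shifts after LacZ were far within their error (-0.04, SE 0.18), and the difference of effects was 0.31 on the RPKM as deposited and 0.06 under quantile normalization. Of 72 groups of 4 libraries screened, over the members and their ratios, 0 held a library far from the other 3.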

How the results depend on the processing

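In Ad-Cre against Ad-LacZ, where 1 member was called, the count was 0 with no filter or one at 0.1 RPKM, 2 on RPKM as deposited, 5 after quantile normalization, 0 to 1 without 1 preparation, and, with the replicate block, 3 (also on RPKM as deposited), 6 after quantile normalization and 2 to 4 without 1 preparation. Of the 0 called with the inhibitor in Ad-Cre, the block made 4, or 1 with either other scaling, and 0 to 6 without 1 preparation. In Ad-LacZ the block made 1 under each scaling and 0 to 1 without 1 preparation. For Ad-Cre against Ad-LacZ under the inhibitor the count of 0 became 2 on RPKM as deposited, 4 after quantile normalization, 2 in the fit of all libraries and 0 to 2 without 1 preparation, and with the block 2, 2, 4 and 0 to 3. The interaction had 0 in every alternative. Over all genes, Ad-Cre against Ad-LacZ had 2201 calls, 1534 with no filter, 1725 with a filter at 0.1 RPKM and 373 to 1054 without 1 preparation. RPKM as deposited gave 2216 and quantile normalization 2093. The block gave 4022, or 3867 and 3805 with those scalings, and 1908 to 3072 without 1 preparation. Under the inhibitor there were 2520, 3056 and 2489 with those scalings and 3825 in the fit of all libraries. With the block these were 2771, 3350 and 2680. The inhibitor in Ad-Cre had 0, 699 with the block, 78 in the fit of all libraries and 3078 with the block and without M2. In Ad-LacZ it had 24, and 42 with the block.

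Signs turned as follows, with and without the block. In Ad-Cre against Ad-LacZ, Ptprn was -0.21 under quantile normalization, and without 1 preparation Cpe ran from -0.16 to 0.02 (M2 left out) and Chgb from -0.20 to 0.06 (F2 left out). For the inhibitor in Ad-Cre, quantile normalization gave Scg5 -0.08, Slc30a8 -0.06 and Ptprn2 -0.05. For the inhibitor in Ad-LacZ it gave Pcsk2 -0.17, Slc30a8 -0.11 and Chgb -0.02, and without 1 preparation these ran from -0.05 to 0.10, -0.05 to 0.12 and -0.06 to 0.36 (lowest with F1 left out), Ptprn2 from -0.08 to 0.02 and the log2 ratio of Chga to Chgb from -0.07 to 0.41 (the turned values with F2 left out). In Ad-Cre against Ad-LacZ under the inhibitor, RPKM as deposited gave Ptprn2 -0.12, quantile normalization gave Cpe -0.45, Scg5 -0.20, Chga -0.27, Chgb -0.01, Scg2 -0.07, Ptprn -0.11 and Ptprn2 -0.42, and leaving out F2 of Ad-Cre + JNK inhibitor gave Pcsk2 0.02 (-0.16 without preparation F1). The interaction was -0.07 (RPKM as deposited) and -0.13 (quantile) for Pcsk1, -0.06 (quantile) for Chga and, without 1 preparation, -0.02 (M2) to 0.36 (F1) for Slc30a8. The cause of these turns was not tested. In all, 856 refitted fold changes kept direction and side of the threshold, 58 passed it, 5 lost it and 51 turned.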
